A study of Rattus with 6 samples.

Results

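Long noncoding RNAs (lncRNAs) are transcripts that are spliced and polyadenylated much as mRNAs are but are not thought to be translated into a long protein. The 150 most abundant of them were followed in rat cardiac fibroblasts grown in culture, cells that lay down the extracellular matrix of the heart, with and without knockdown of Nono. Members were selected from the 3569 genes that the deposited count table types as lncRNA, among 21378 genes in all, by their mean CPM (counts scaled to a library of 1000000) over all 6 libraries. The selection used levels averaged over both groups and no difference between them, so the levels are a description and the comparison of siNONO with siCtrl was tested.

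The design had 3 libraries titled siCtrl and 3 titled siNONO, the latter transfected with an siRNA against Nono by lipofection. All 6 came from a commercially supplied line of rat cardiac fibroblasts, with no strain, sex or animal named. The labels describe the control cells as having received an empty vector although the titles call them siCtrl, and which of these holds is open to question. If the controls received a vector, effects of Nono loss and of siRNA delivery cannot be told apart. The comparison asks how lncRNA levels differ between cells with reduced Nono and these controls. The splicing named in the series title cannot be read from counts per gene. The labels give a harvest time only for RT-qPCR and western blotting. Nothing says that the replicates were separate cultures, so that the p-values reflect the spread among these libraries, which may be technical.

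NONO is a nuclear protein of the DBHS family, with the paralogs SFPQ and PSPC1, and binds RNA and DNA in paraspeckles, bodies that are built on a lncRNA. Many lncRNAs stay in the nucleus, some act on a neighbouring gene, and others serve mainly as carriers of small RNAs. A snoRNA host is spliced so that its introns release small nucleolar RNAs, which guide the modification of ribosomal RNA, while a microRNA host is processed into short repressors of mRNAs. Poly(A) selection, which was used here, measures the spliced host and not the small RNA that it releases.

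Total counts ran from 27792357 to 33365588 per library. Nono itself read 237, 233 and 247 CPM in replicates 1, 2 and 3 of siCtrl, and those of siNONO read 69.9, 76.1 and 73.6 CPM. The mean in siNONO was 30.7% of the control mean (two-sided exact permutation test, p = 0.1, which is the lowest value possible with 3 libraries a group). All 10 fibroblast markers were above 1 CPM, with Col1a1 the highest, while all but 1 of the cardiomyocyte markers analysed here and all but 2 of the endothelial ones were below it. That cardiomyocyte marker was Tnnt2, troponin T, at 152 CPM in siCtrl and 112 CPM in siNONO. Leukocyte markers were present in both groups, summing to 310 to 331 CPM in siCtrl and 291 to 305 CPM in siNONO, led by Cd68. Of 14412 genes tested with edgeR, 4630 (32.1%) were called at an adjusted p below 0.05, 2338 (16.2%) as raised and 2292 (15.9%) as lowered in siNONO.

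In the results below, CPM values are scaled by the trimmed mean of M-values (TMM) and listed in the order of replicates 1, 2 and 3. Changes are log2 fold changes of siNONO over siCtrl ± standard error from edgeR's quasi-likelihood test, with p-values adjusted over all 14412 genes. The replicate error is the SD over 3 libraries. In these bulk samples, fewer cells of a type and less RNA per cell cannot be told apart. The sources used here do not say whether strand was used in counting, so reads of a lncRNA and of a gene that overlaps it may have been mixed.

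The 150 lncRNAs covered a wide range of levels and took a small part of the transcriptome. Their mean level over the 6 libraries ran from 3.88 to 187 CPM with a median of 7.89 CPM, and 57 of them reached 10 CPM. Scaled per length, as FPKM, they spanned 0.227 to 365 with a median of 2.62. The last ones inside the list were LOC102550246 at 3.95, LOC102551889 at 3.90 and LOC102551693 at 3.88 CPM, and the first ones outside were LOC102552725 at 3.78, LOC120101631 at 3.78 and LOC102550017 at 3.71 CPM. Together the members held 73.76% of all counts on lncRNA genes. Their share of all counts was 0.287%, 0.2864% and 0.2865% in siCtrl and 0.2785%, 0.2768% and 0.2692% in siNONO. The siNONO libraries were all below the siCtrl libraries, with a mean difference of -0.0119 percentage points.

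Most members are uncharacterised. A LOC symbol, given to gene models without an established name, was carried by 133 of the 150, and 17 had another symbol. In the newer RefSeq annotation of GRCr8, an assembly other than the one the files use, 129 were matched, all on the same chromosome, and 123 of those are still typed as lncRNA. The remaining ones are 5 genes now typed as protein-coding and 1 pseudogene. Under the GRCr8 names, LOC120098113 is Carmn and LOC102555331 is Jpx. Neat1 and Malat1, the lncRNAs best known from nuclear bodies, had no row under these symbols, so they could not be ranked by name and were not analysed here. Miat, also listed with them, had a row but did not pass the filter on low counts.

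All 150 members passed the filter on low counts, and 53 of them (35.3%) were called, against 32.1% of all genes tested. Of these, 22 (14.7%) were raised, against 16.2% of all genes, and 31 (20.7%) were lowered, against 15.9%. These shares lie near the background. The 3 siCtrl and 3 siNONO libraries did not overlap for 69 members (46.0%), against 45.0% of all genes. The median log2 fold change was -0.03, against 0.002 over all genes, and the range ran from -0.82 to 0.88, so that no member changed by 2-fold. The size of the difference, without its sign, had a median of 0.194 among members and 0.153 among all genes on the log2 scale. Scaling by total library size in place of TMM moved the split to 32 raised and 29 lowered. Spread within a group was modest: the coefficient of variation of a member had a median of 8.31% in siCtrl and 6.82% in siNONO.

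**Figure D1:**
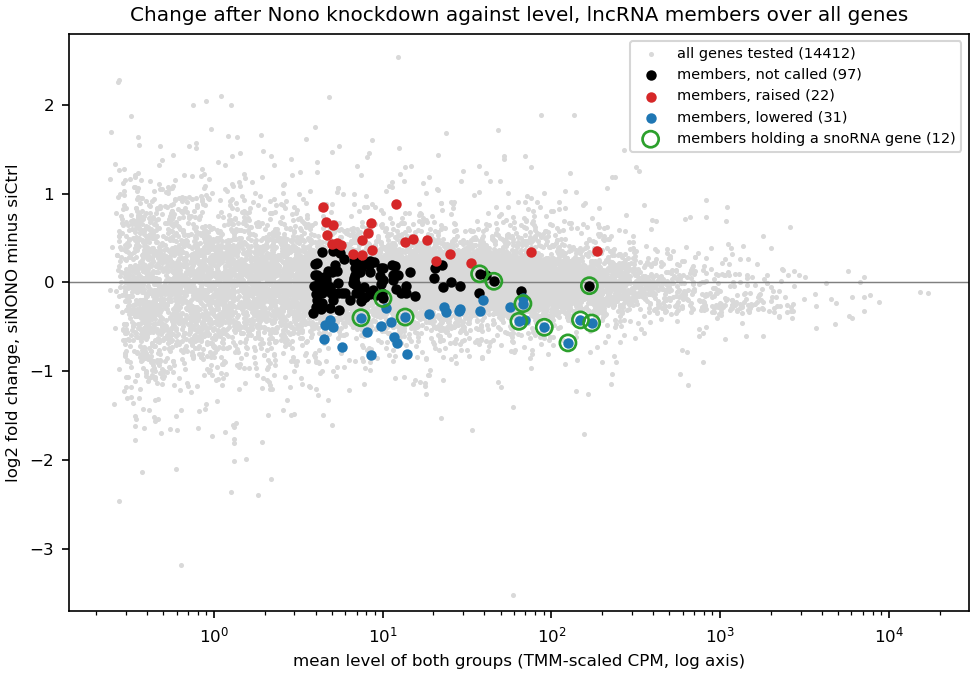
Mean level of both groups (TMM-scaled CPM, log axis) against the log2 fold change of siNONO over siCtrl, with 1 point per gene for 14412 genes tested in grey and 150 lncRNA members in black (97 not called), red (22 raised) and blue (31 lowered). Green rings mark the 12 members whose span holds a snoRNA gene, of which 8 are blue.

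Counts of calls are given here by level. Among the 12 most abundant lncRNAs, 8 were lowered and 2 raised. Among ranks 1 to 50, 20 were lowered and 9 raised, among the next 50 the counts were 6 and 6, and among the last 50 they were 5 and 7. In shares, 83.3% of the top 12 and 58% of the first 50 were called, against 24% of each later class of 50 and 32.1% of all genes. The share lowered was 66.7% in the top 12 and 40% in the first 50, against 15.9% of all genes. These classes also differ in depth, and the part of depth in their counts was not tested. The 12 most abundant lncRNAs took 49.72%, 47.03% and 47.0% of the counts of all members in siCtrl and 44.27%, 45.54% and 44.34% in siNONO, with no overlap between the groups. Of the 8 lowered among these 12, Gas5, LOC120098269, LOC120102992, LOC102549726, LOC100912041 and LOC102556004 have a snoRNA gene inside their span. LOC100911177, which was not called, has one too. The counts by level and those by snoRNA gene below thus share members and are not separate results.

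The lncRNA of highest mean CPM, LOC100910973 on chromosome 1, lies between the genes Ms4a18 and Ms4a8 in GRCr8. It read 190, 166 and 137 CPM in siCtrl and 204, 214 and 210 CPM in siNONO. The siNONO libraries were close together and all above the siCtrl libraries, which were spread widely, with replicate 3 the lowest. Its log2 fold change was 0.35 ± 0.08 (edgeR adjusted p = 0.00492). Leaving out 1 library at a time gave values from 0.24 to 0.47, and the call held each time.

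In GRCr8, 12 members have at least 1 snoRNA gene inside their span, 33 snoRNA genes in all. The gene table gives spans without strand, so a nested snoRNA or microRNA gene may lie on the other strand, and to carry or hold one means here only that it lies inside the span. This class was drawn up after values had been seen. Of the 12, 8 were lowered and 0 raised, with a median log2 fold change of -0.394, while the other 117 members placed in GRCr8 had 20 lowered, 18 raised and a median of -0.01. Over all genes tested, 15.9% were lowered. Carriers were also looked up among the lncRNAs next in abundance, outside the members. LOC100911534 had a log2 change of 0.14 ± 0.17, LOC102551976 -0.07 ± 0.17 and LOC102546698 -0.36 ± 0.18. These were not called, and their standard errors were larger than those of the 12. Of the known snoRNA hosts listed, 3 were tested. Gas5 and Dancr were lowered, and the third, outside the members, had 0.256 and was not called. The counts of the 12 together were 0.1083%, 0.1004% and 0.1048% of all counts in siCtrl and 0.08555%, 0.08899% and 0.08141% in siNONO. The remaining members summed to 0.1821 ± 0.00366% in siCtrl and 0.1895 ± 0.00298% in siNONO (SD, n = 3).

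Gas5, growth arrest specific 5, is a snoRNA host whose spliced transcript is known to be removed by nonsense-mediated decay, and its span holds 9 snoRNA genes. It had 214, 183 and 205 CPM in siCtrl and 144, 155 and 139 CPM in siNONO. Every siNONO library was below every siCtrl library. The log2 fold change was -0.46 ± 0.06 (edgeR adjusted p = 4.01e-05). Per length, Gas5 stood at 416 FPKM in siCtrl and 314 FPKM in siNONO, and its mean over all 6 libraries was the highest of the 150. In siNONO alone, LOC100911177 was above it, at 347 FPKM.

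The largest fall in this class was that of LOC120102992 on chromosome 5, beside Trnau1ap, which holds 4 snoRNA genes. Its levels were 156.9, 151.1 and 155.1 CPM in siCtrl and 95.7, 100.3 and 92.7 CPM in siNONO. Both groups were tight and well apart. The log2 fold change was -0.68 ± 0.04 (edgeR adjusted p = 1.04e-07), the lowest p-value of any member, whereas Trnau1ap itself, a factor of selenocysteine incorporation, had -0.10 ± 0.05 and was not called.

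LOC102549726 on chromosome 20, between the heat shock gene Hspa1b and Neu1, holds 2 snoRNA genes. It read 108, 103 and 109 CPM in siCtrl and 77, 78.3 and 69.8 CPM in siNONO. The groups did not overlap, and the log2 fold change was -0.51 ± 0.05 (edgeR adjusted p = 4.73e-06). LOC120098269 on chromosome 18, between Nrep and Epb41l4a, holds 1 snoRNA gene. Its values were 183, 158 and 170 CPM in siCtrl and 123, 136 and 122 CPM in siNONO, a log2 change of -0.42 ± 0.06 (edgeR adjusted p = 8.04e-05). Again no siNONO library reached the lowest siCtrl library.

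LOC102556004 on chromosome 5 holds 1 snoRNA gene and overlaps Mcmdc2, a gene of meiotic recombination. Counts stood at 78.8, 70.5 and 72.2 CPM in siCtrl and 54.7, 55.9 and 52.9 CPM in siNONO. The log2 fold change was -0.44 ± 0.05 (edgeR adjusted p = 1.74e-05), while Mcmdc2 had 0.05 ± 0.13 and was not called. LOC100912041 on chromosome 1, beside the amino acid transporter subunit gene Slc3a2, holds 7 snoRNA genes. It went from 70.1, 76.0 and 74.1 CPM to 62.6, 63.7 and 60.4 CPM, a smaller but still separate fall of -0.24 ± 0.05 (edgeR adjusted p = 0.00126). Slc3a2 fell as well, by 0.20 on the log2 scale.

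At lower levels, LOC100909675, beside Tomm7, had 16.5, 14.5 and 15.2 CPM in siCtrl and 12.6, 11.3 and 11.4 CPM in siNONO, a log2 change of -0.39 ± 0.08 (edgeR adjusted p = 0.00141). Dancr, a snoRNA host named for holding back differentiation, had 8.49, 8.62 and 8.24 CPM in siCtrl and 6.55, 6.56 and 6.12 CPM in siNONO. Both were lower in every siNONO library. For Dancr the log2 fold change was -0.40 ± 0.09 (edgeR adjusted p = 0.00314), and its neighbour Usp46, a deubiquitinase gene, fell by 0.50 on the log2 scale.

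Of the 12 carriers, 4 were not called. LOC100911177, beside Znfx1 on chromosome 3 and the third in abundance, had 192, 156 and 162 CPM in siCtrl and 166.6, 177.7 and 152.8 CPM in siNONO. These groups overlapped, with a log2 change of -0.04 ± 0.07 (edgeR adjusted p = 0.73), while Znfx1, an RNA helicase gene of antiviral defence, rose by 0.77. LOC100911266 read 36.0, 36.0 and 36.8 CPM in siCtrl and 38.8, 41.0 and 36.6 CPM in siNONO, a log2 change of 0.10 ± 0.05 (edgeR adjusted p = 0.169). LOC100909539 had 0.01 ± 0.06 and LOC102547700 had -0.18 ± 0.08. Falling counts were therefore not shared by every carrier, and the carriers with several snoRNA genes were found on both sides of the threshold.

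Many of the snoRNA genes inside these spans had no row under their symbol among the genes counted. For Gas5, 7 of the 9 were found, and for LOC100911177, 0 of the 3. Those that were found had few counts. The highest had a mean of 2.02 CPM, 8 of them passed the filter, and edgeR called 0. Of the mRNAs of 8 proteins listed for snoRNA particles, 2 were lowered (25%, against 15.9% of all genes) and 0 raised. The called share, also 25%, was below the 32.1% of all genes. The lowered ones were Nop10, a subunit of the box H/ACA particle, at -0.41 ± 0.04 (edgeR adjusted p = 1e-05) and Snu13, which binds box C/D snoRNAs, at -0.15 ± 0.05 (edgeR adjusted p = 0.0258). The median of the list was -0.003.

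**Figure D2:**
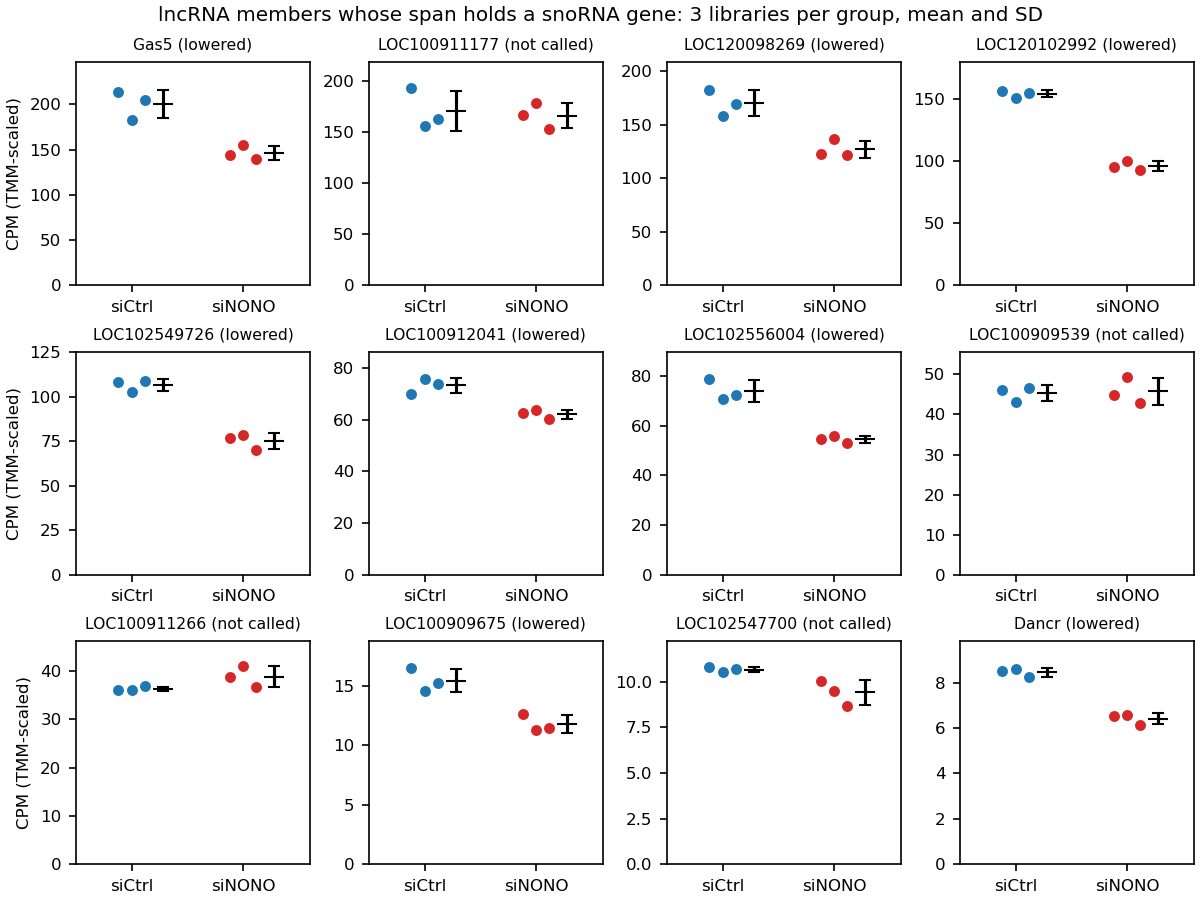
Level in each library (TMM-scaled CPM, axes starting at 0) for the 12 lncRNA members whose span holds a snoRNA gene, with siCtrl in blue, siNONO in red and the mean and SD of 3 libraries in black. Gas5 stood at 183 to 214 CPM in siCtrl and 139 to 155 CPM in siNONO, whereas the groups of LOC100911177 overlap.

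Among members with a symbol other than LOC and no snoRNA gene, 4 were lowered (Tug1, Pvt1, Mtln and Tmem80) and 1, Lnc215, was raised. Tug1, a conserved and mostly nuclear lncRNA, had 28.9, 33.5 and 31.7 CPM in siCtrl and 24.0, 24.7 and 26.8 CPM in siNONO. No library overlapped, and the log2 fold change was -0.32 ± 0.06 (edgeR adjusted p = 0.00181). Pvt1, which neighbours the oncogene Myc and hosts microRNAs in human and mouse, had 42.4, 42.1 and 41.6 CPM in siCtrl and 36.8, 35.1 and 37.8 CPM in siNONO. Its log2 fold change was -0.20 ± 0.05 (edgeR adjusted p = 0.00447), a call that was lost on log2(FPKM + 1) and log2(FPKM + 0.1). Myc stood at 0.16 ± 0.06 and was not called.

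Oip5-as1, the lncRNA also called Cyrano and known for directing the decay of a microRNA, read 66.9, 68.1 and 70.3 CPM in siCtrl and 63.4, 63.7 and 65.5 CPM in siNONO. The siNONO libraries were all lower, by little, and the log2 fold change of -0.09 ± 0.04 was not called (edgeR adjusted p = 0.12). Crnde, which overlaps Irx5, had -0.12 ± 0.12 (edgeR adjusted p = 0.469). Of the members named as antisense or opposite-strand transcripts, Thumpd3-as1 had -0.12 ± 0.08 and Zbtb11os1 had 0.05 ± 0.09, so that 0 of 3 with Oip5-as1 were called. Among all 17 members with a symbol other than LOC, 6 were lowered (35.3%, against 15.9% of all genes) and 1 raised (5.88%, against 16.2%).

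In 7 members the span holds microRNA genes, 19 in all, and their mature products were not measured by these libraries. Lnc215 on chromosome 8 holds Mir100, Mir125b1, Mirlet7a-2 and Mir3596a, and overlaps the protein-coding gene LOC120094123, which rose by 0.55 on the log2 scale. It had 52.9, 78.7 and 68.3 CPM in siCtrl and 91.6, 76.3 and 86.3 CPM in siNONO. The groups overlapped, since siNONO replicate 2 was below siCtrl replicate 2, and the log2 fold change was 0.34 ± 0.10 (edgeR adjusted p = 0.0219). Without siNONO replicate 1 or 3 the call was lost, with an edgeR adjusted p of up to 0.106.

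LOC120098113, which is Carmn in GRCr8, holds Mir143 and Mir145, microRNAs of smooth muscle and fibroblasts, and is known as a lncRNA of the cardiovascular lineage. Its levels were 37.5, 44.4 and 43.6 CPM in siCtrl and 35.3, 31.2 and 33.9 CPM in siNONO. Every siNONO library was lower, with a log2 change of -0.32 ± 0.07 (edgeR adjusted p = 0.00193), a call that was lost on log2(FPKM + 1). The pericyte and smooth muscle markers moved with it. They summed to 57.5 to 63.3 CPM in siCtrl and 47.4 to 49.4 CPM in siNONO. Of the 4 tested, 3 (Myh11, Kcnj8 and Cspg4) were lowered, or 75% against 15.9% of all genes. Falls were not particular to this list. Among markers tested, 3 of 5 for leukocytes, 1 of 2 for cardiomyocytes and 4 of 10 for fibroblasts were lowered. Of these lists, only that of fibroblasts had a raised marker, 1 in all, and 0 of 4 endothelial markers were called. The part of any marker in the result was not tested.

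The other microRNA carriers did not pass the test. LOC103692514, with Mir34a, had a log2 change of -0.05 ± 0.10, and LOC102550366, with Mir322, Mir351 and Mir503, had -0.16 ± 0.10. LOC120097935, which holds a let-7 cluster, was at -0.00 ± 0.12. Jpx, a lncRNA known as an activator of Xist, holds Mir374b and Mir421 and is listed as LOC102555331. It had 3.98, 5.10 and 5.31 CPM in siCtrl and 5.53, 5.09 and 5.07 CPM in siNONO, with overlapping groups and a log2 change of 0.12 ± 0.12. The span of Ftx, a lncRNA outside the 150, holds the same microRNA genes, and Ftx had -0.40 ± 0.18 with separate groups and was not called (edgeR adjusted p = 0.111). LOC120099382, with Mir221 and Mir222, had 0.21 ± 0.15. In all, 1 of the 7 was raised and 1 lowered, a called share of 28.6% that is near the 32.1% of all genes.

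Several members that the deposited table types as lncRNA are known or now annotated to encode small proteins. Mtln, mitoregulin, encodes a mitochondrial micropeptide. It read 13.8, 11.6 and 13.1 CPM in siCtrl and 8.29, 9.78 and 10.2 CPM in siNONO, lower in each siNONO library, with a log2 change of -0.44 ± 0.09 (edgeR adjusted p = 0.00255). LOC100912557, which is Atp5mpl in GRCr8 and encodes a subunit of the mitochondrial ATP synthase, had 78.1, 70.1 and 67.4 CPM in siCtrl and 63.4, 66.5 and 61.0 CPM in siNONO. That small fall of -0.17 ± 0.06 (edgeR adjusted p = 0.0298) lost its call under 8 of 18 alternatives. Among these were the fits without siCtrl replicate 1, siNONO replicate 1 or siNONO replicate 3, with an edgeR adjusted p of up to 0.121.

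Ndufb1, a subunit of respiratory complex I, had 43.9, 36.0 and 36.5 CPM in siCtrl and 33.1, 39.9 and 33.7 CPM in siNONO. Its groups overlapped, and it was not called at -0.12 ± 0.08, although Cpsf2, a polyadenylation factor gene that overlaps it in GRCr8, rose by 0.45. Tmem80, a transmembrane protein gene, had 11.0, 11.6 and 12 CPM in siCtrl and 9.58, 8.91 and 9.93 CPM in siNONO, a log2 change of -0.29 ± 0.08 (edgeR adjusted p = 0.0134). Its call was lost without siCtrl replicate 3 or siNONO replicate 2, with an edgeR adjusted p of up to 0.0574. Rhno1, a gene of the replication checkpoint, was at 0.07 ± 0.09. LOC100912167, the last of those 5 genes, was at -0.07. Tincr, best known from skin, had -0.29 ± 0.13 (edgeR adjusted p = 0.104).

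LOC120097382 on chromosome 1 was an uncharacterised member whose call rested on few libraries. It had 3.72, 4.33 and 4.72 CPM in siCtrl and 6.98, 5.42 and 5.01 CPM in siNONO. The lowest siNONO library was just above the highest siCtrl library. The log2 fold change was 0.43 ± 0.14 (edgeR adjusted p = 0.0309), and the call was lost without siCtrl replicate 1, siCtrl replicate 2 or siNONO replicate 1, with an edgeR adjusted p of up to 0.163.

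Transcripts of proteins that work with lncRNAs in the nucleus changed in both directions. The libraries measured RNA, so raised and lowered refer here to the mRNA and not to the protein. Of 15 listed paraspeckle proteins, 5 were raised and 3 lowered. The median was 0.065 on the log2 scale. Both NONO paralogs rose. Pspc1 went from 16.1, 20.2 and 18.5 CPM to 33.7, 34.5 and 32.9 CPM, a log2 change of 0.88 ± 0.07 (edgeR adjusted p = 6.35e-07), and Sfpq had 0.36 ± 0.04 (edgeR adjusted p = 3.45e-05). The lowered ones besides Nono were Smarca4, a chromatin remodelling ATPase, at -0.48 ± 0.04 and Hnrnph3 at -0.24 ± 0.06.

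Of 20 genes of the nuclear exosome, which degrades nuclear RNA, and its adaptors, 2 were raised and 2 lowered, and the median was -0.01. The raised ones were Exosc10, its catalytic nuclear subunit, at 0.19 ± 0.05 and Exosc9 at 0.16 ± 0.06. Changes over the 20 genes ran from -0.37 to 0.19, so the largest fall was larger than either rise. Of 14 factors of nonsense-mediated decay, 2 were raised, among them Casc3 at 0.41 ± 0.07, and 0 lowered. Of 15 writers, erasers and readers of the m6A mark on RNA, 4 were raised and 2 lowered, among the latter the reader Ythdf3 at -0.52 ± 0.05. Against 32.1% of all genes, 53.3% of the paraspeckle proteins (Nono, the siRNA target, among them), 40% of the m6A genes, 20% of the exosome list and 14.3% of the decay factors were called.

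The 12 largest rises with separate groups came from ranks 34 to 130. LOC120100774 on chromosome 2 overlaps Il7, the gene of a lymphocyte growth factor, and had 8.68, 10.7 and 6.2 CPM in siCtrl and 17.9, 13.4 and 15.5 CPM in siNONO. The siCtrl libraries varied but all lay below siNONO. Its log2 fold change was 0.88 ± 0.15 (edgeR adjusted p = 0.000493), and Il7 had -0.33 ± 0.14 and was not called. LOC120102855, beside the ubiquitin and SUMO ligase gene Topors, went from 3.95, 3.41 and 2.25 CPM to 5.92, 5.90 and 5.27 CPM. Its log2 fold change was 0.85 ± 0.16 (edgeR adjusted p = 0.00131), with siCtrl replicate 3 the lowest of all.

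LOC100910319, which overlaps the gene of the focal adhesion protein Lpp, had 4.06, 3.31 and 3.33 CPM in siCtrl and 6.35, 5.69 and 5.10 CPM in siNONO. It rose by 0.68 ± 0.13 on the log2 scale (edgeR adjusted p = 0.00121) while Lpp fell by 0.39. LOC120095074 had 5.88, 7.46 and 6.39 CPM in siCtrl and 10.7, 10.3 and 10.3 CPM in siNONO, a log2 change of 0.67 ± 0.10 (edgeR adjusted p = 0.00012). Both sets of groups were apart. LOC102550524, which overlaps the zinc finger gene Zcchc2, had 3.80, 4.36 and 3.64 CPM in siCtrl and 7.57, 5.12 and 5.77 CPM in siNONO. It and Zcchc2 both rose, by 0.64 ± 0.15 (edgeR adjusted p = 0.00448) and 0.55 on the log2 scale.

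LOC120097004 on chromosome 15 was among the most even. It stood at 12.7, 12.5 and 12.6 CPM in siCtrl and 18.5, 17.0 and 17.3 CPM in siNONO, a log2 change of 0.48 ± 0.07 (edgeR adjusted p = 8.51e-05). LOC102548615 overlaps Gata4, a transcription factor gene of the heart. Its 3.91, 4.19 and 3.40 CPM in siCtrl and 4.97, 6.17 and 5.45 CPM in siNONO gave a log2 change of 0.54 ± 0.13 (edgeR adjusted p = 0.00543), and Gata4 had -0.13 ± 0.05 and was called lowered (edgeR adjusted p = 0.0405). Since both genes overlap, a read of either could have been counted on the other.

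The remaining ones of the 12 largest rises with separate groups lay between 0.44 and 0.56. LOC120096893, beside the receptor tyrosine kinase gene Axl, rose by 0.56 ± 0.11, and Axl rose by 0.38. LOC102546453, beside the corepressor gene Rcor3, rose by 0.47 ± 0.07 and Rcor3 by 0.23. LOC108352959, which overlaps Mycbp2, rose by 0.47 ± 0.10 with Mycbp2 at -0.00. LOC120095340, with Socs3 on one side, rose by 0.46 ± 0.10. LOC102547443, which overlaps Frg1, rose by 0.44 ± 0.12, a call that was lost without siNONO replicate 1 or 3 (edgeR adjusted p of up to 0.0629).

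Falls reached a similar size. LOC102550162 on chromosome 9 neighbours Vegfa, the gene of the main angiogenic growth factor, and read 11.7, 11.5 and 9.63 CPM in siCtrl and 5.73, 5.81 and 6.97 CPM in siNONO. No siNONO library came near the siCtrl libraries. The log2 fold change was -0.82 ± 0.11 (edgeR adjusted p = 5.39e-05), and Vegfa fell too, by 0.45. LOC102551884 on chromosome 11, beside the matrix protein gene Ccdc80, had 18.7, 17.9 and 16.7 CPM in siCtrl and 10.3, 10.2 and 9.87 CPM in siNONO. Here the spread was small in both groups, and the log2 fold change was -0.81 ± 0.07 (edgeR adjusted p = 1.57e-06), with Ccdc80 lower by 0.16.

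LOC108351105, beside the forkhead gene Foxd2, had 7.48, 7.25 and 6.82 CPM in siCtrl and 4.48, 4.6 and 3.93 CPM in siNONO, a log2 change of -0.73 ± 0.11 (edgeR adjusted p = 0.000141). LOC102556051 had 14.3, 12.8 and 17.5 CPM in siCtrl and 9.08, 10.4 and 8.41 CPM in siNONO, a log2 change of -0.69 ± 0.11 (edgeR adjusted p = 0.000367). Its neighbour Pik3r1, a regulatory subunit of PI3 kinase, moved the other way, at 0.15 ± 0.05. LOC102552762 behaved alike, going from 13.9, 12.3 and 16.3 CPM to 8.89, 10.02 and 8.97 CPM, a log2 change of -0.61 ± 0.10 (edgeR adjusted p = 0.000365), while its neighbour Tbc1d1, a regulator of glucose transporter traffic, rose by 0.44.

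LOC102547728, beside the DNA polymerase subunit gene Pole4, had 5.32, 5.17 and 5.96 CPM in siCtrl and 3.36, 3.58 and 3.63 CPM in siNONO, a log2 change of -0.64 ± 0.12 (edgeR adjusted p = 0.000831). Pole4 fell by 0.30. LOC120094285, beside the TGF-beta receptor gene Tgfbr2, fell by 0.56 ± 0.11, whereas Tgfbr2 was at -0.01 ± 0.04. LOC102549948 fell by 0.49 ± 0.10 with its neighbour Tram2 lower by 0.31. On the X chromosome, LOC102547042 fell by 0.50 ± 0.11 and LOC120099244 by 0.48 ± 0.13, both nearest to Ddx3x, an RNA helicase gene that had -0.07 ± 0.04. For LOC120099244 the call was lost without siCtrl replicate 3 (edgeR adjusted p = 0.0522). LOC103691688, the eighth in abundance and not matched in GRCr8, had 85.6, 75.1 and 77.4 CPM in siCtrl and 58.8, 65.1 and 53.8 CPM in siNONO, a log2 change of -0.42 ± 0.07 (edgeR adjusted p = 0.000271).

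A further 12 members were called with changes of at most 0.43 on the log2 scale in either direction. Of the 7 raised ones, LOC102549117 had 20.6, 22.2 and 23.8 CPM in siCtrl and 28.8, 25.5 and 28.8 CPM in siNONO, with a change of 0.32 ± 0.07 (edgeR adjusted p = 0.00268). LOC102555426, which overlaps the synaptic scaffold gene Dlgap1, had 19, 18.3 and 19.8 CPM in siCtrl and 21.6, 22.5 and 23.2 CPM in siNONO, with a change of 0.24 ± 0.06 (edgeR adjusted p = 0.00785). In both, the groups were apart by a narrow margin. LOC100912002 rose by 0.42 ± 0.11, and its call also held without each library. The calls of the other 4 (LOC120095139, LOC108350484, LOC120102383 and LOC120095843) were each lost without at least 2 of the libraries, taken 1 at a time.

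Of the 5 lowered ones, LOC120098827 on chromosome 20, which overlaps the skin gene Cdsn, was the most abundant, with 59.5, 62.9 and 64.4 CPM in siCtrl and 52.2, 52.1 and 50.5 CPM in siNONO. Its siNONO libraries were tight and all lower, with a change of -0.27 ± 0.05 (edgeR adjusted p = 0.000451). LOC108352161, beside Prcd, had 23.3, 19.1 and 20.5 CPM in siCtrl and 16.9, 17.5 and 14.8 CPM in siNONO, with a change of -0.35 ± 0.08 (edgeR adjusted p = 0.00504), and Prcd fell by 0.20. The calls of LOC102551133, LOC102550999 and LOC102551211 were each lost without at least 1 library. Of the 97 members not called, 19 had groups that did not overlap, and the same share among all genes not called was not worked out. With called ones included, groups did not overlap for 46.0% of members and 45.0% of all genes. On the X chromosome, which also carries Nono, 3 of 8 members were lowered (37.5%, against 15.9% of all genes) and 0 raised. The called share, also 37.5%, was near the 32.1% of all genes. With 8 members, the difference in the lowered share was not tested.

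**Figure D3:**
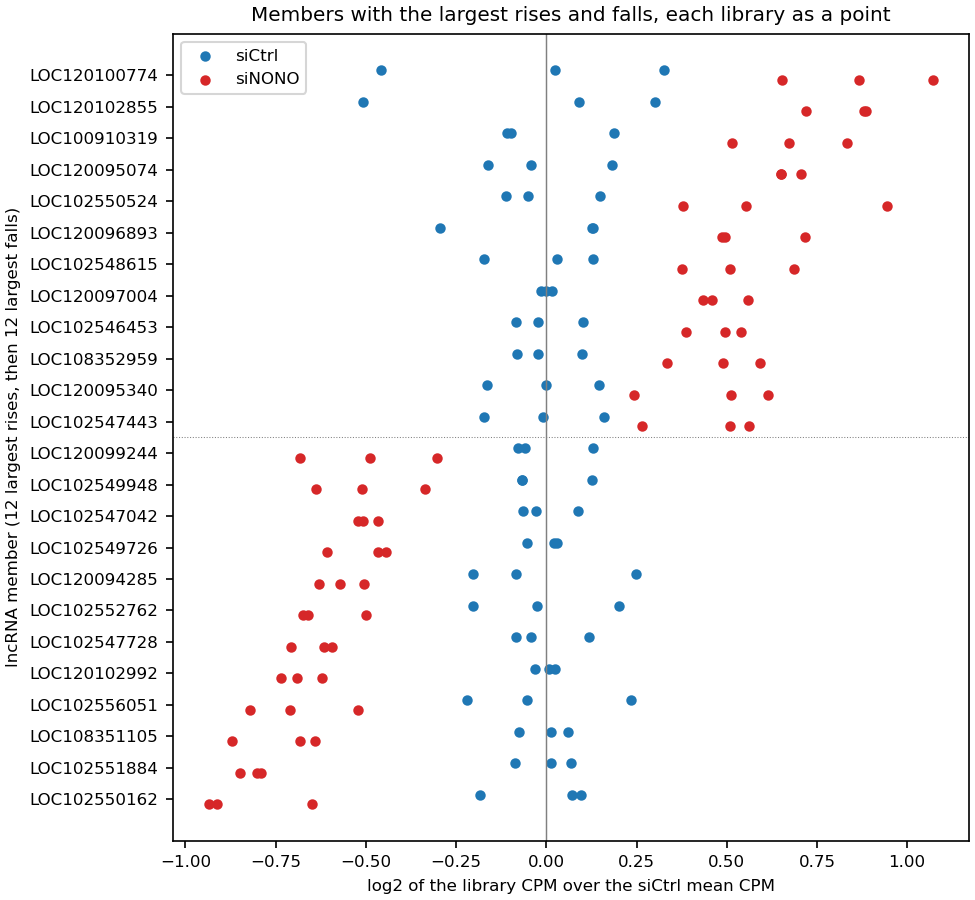
The 12 largest rises (top) and 12 largest falls (bottom) among called lncRNA members whose groups did not overlap, with each library's level as log2 of its CPM over the siCtrl mean and siCtrl in blue, siNONO in red. LOC120100774 heads the rises at a log2 fold change of 0.88 and LOC102550162 the falls at -0.82.

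Since some lncRNAs act on the gene beside them or share its promoter, each of the 129 members placed in GRCr8 was set beside the nearest protein-coding gene that was tested. That gene was taken at any distance on the chromosome, and coding genes not tested were passed over, so some pairs are not adjacent. Both were called in 22 pairs. In 17 of these they moved in the same direction, 8 both raised and 9 both lowered, and in 5 they moved in opposite directions. The 17 include LOC100910973 with Ccdc86 and LOC100912557, now typed as protein-coding, with Ppp1r13b. Other coding genes flank both of these members, and the counts were not split by distance. Of the 129 pairs, the lncRNA was called in 46 and the coding gene in 56, where 32.1% of all genes were called, and how many pairs would share calls without any link was not tested. In 24 pairs only the lncRNA was called and in 34 only the coding gene. Across the 129 pairs, which share libraries and in a few cases a neighbour, Spearman's rho between both log2 fold changes was 0.233 and Pearson's r was 0.21, given as a description.

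The pairs were also counted by whether the spans overlap. Of 34 members that overlap the coding gene, 9 were raised and 3 lowered. Of 95 that do not, 9 were raised and 25 lowered. The called shares, 35.3% and 35.8%, were near the 32.1% of all genes, while 26.5% and 9.47% were raised, against 16.2%, and 8.82% and 26.3% lowered, against 15.9%. Where both were called, overlapping pairs moved together in 3 and apart in 3, with a rho of -0.01 over the 34, and the other pairs moved together in 14 and apart in 2, with a rho of 0.308 over the 95. The difference between these classes was not tested. The 5 opposite pairs were LOC102548615 with Gata4, LOC100910319 with Lpp, LOC102554570 with Adamts9, LOC102556051 with Pik3r1 and LOC102552762 with Tbc1d1. Of these, LOC102554570 lost its call without siCtrl replicate 3, the highest of its siCtrl libraries at 32.4 CPM, and without siNONO replicate 1. Its log2 change was -0.33 ± 0.10 with all libraries and -0.16 without siCtrl replicate 3 (edgeR adjusted p = 0.1).

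A large change of the coding gene did not always come with one of the lncRNA. Bdkrb2, the bradykinin receptor gene that overlaps LOC120103615, rose by 1.24 ± 0.14 (edgeR adjusted p = 1.73e-05). LOC120103615 had 10.3, 10.7 and 8.77 CPM in siCtrl and 10.5, 8.88 and 9.87 CPM in siNONO, with overlapping groups and a log2 change of -0.02 ± 0.10. LOC120095615 overlaps the interferon receptor gene Ifnar2 and had 14.1, 13.7 and 14.3 CPM in siCtrl and 15.2, 15.2 and 15.1 CPM in siNONO. Its libraries were separate by a narrow gap, but it was not called at 0.11 ± 0.06 (edgeR adjusted p = 0.2), and Ifnar2 rose by 0.21.

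Near genes of heart development, LOC103693946 beside Hand2 had 5.92, 5.73 and 6.85 CPM in siCtrl and 6.81, 7.61 and 7.41 CPM in siNONO, a log2 change of 0.24 ± 0.10 that was not called (edgeR adjusted p = 0.094), while Hand2 rose by 0.31. LOC100909782 beside Gata6 had -0.19 ± 0.14 with Gata6 at -0.03. LOC102556395, beside the collagen gene Col1a1, read 22.1, 26.3 and 27.1 CPM in siCtrl and 27.3, 25.5 and 23.4 CPM in siNONO. Its groups overlapped, at 0.01 ± 0.08, and Col1a1 was at -0.10 ± 0.04. These 3 members and the Bdkrb2 and Ifnar2 pairs were picked after their values had been seen.

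**Figure D4:**
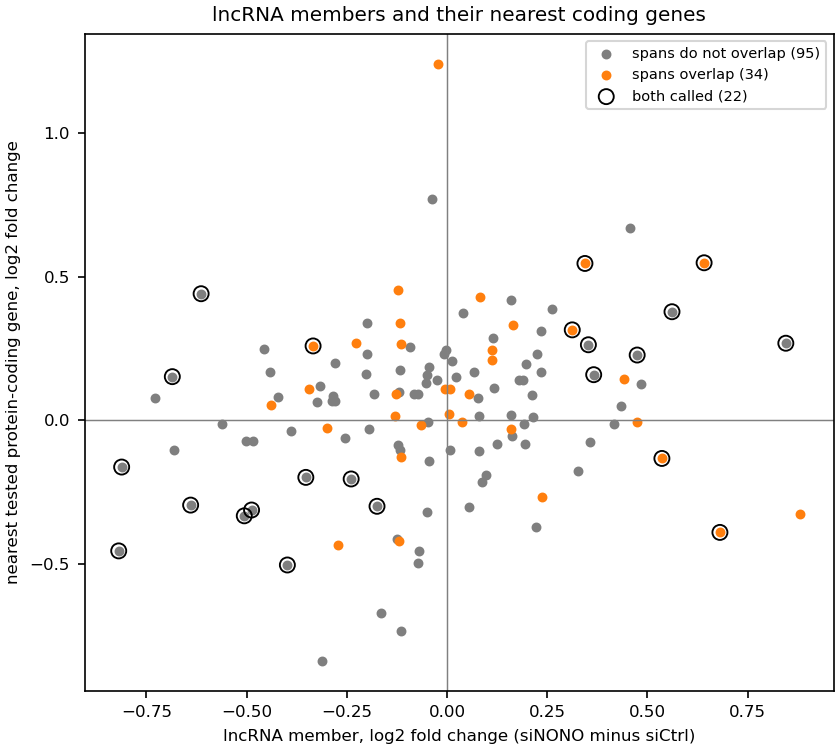
Log2 fold change of each lncRNA member (horizontal) and of its nearest tested protein-coding gene (vertical), siNONO minus siCtrl, for 34 pairs whose spans overlap (orange) and 95 that do not (grey). Black rings mark the 22 pairs with both genes called, 17 of them in the quadrants of equal sign, and the highest point is Bdkrb2 at 1.24.

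Compared with the rest of the class, the abundant lncRNAs were called more often. Of 796 other lncRNA genes that passed the filter, 40 were raised and 46 lowered (10.8% called), and their differences had a median size of 0.315 on the log2 scale, larger than the 0.194 of the members. Among protein-coding genes tested, 33.5% were called. The other lncRNAs have lower counts by the way members were selected, so these shares differ in depth as well.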

How the data were processed

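Poly(A)-selected RNA was sequenced from 6 libraries, per the labels' protocols with a stranded mRNA kit. HISAT2, edgeR and the build mRatBN7.2 are listed in the submitters' processing notes, without versions. For the counting tool, its use of strand and the annotation, nothing is given in the sources used here. The deposited count table held raw whole-number counts for 21378 genes and was the basis of all tests. The deposited FPKM table, scaled by the authors by gene length and depth, held 21081 of them and served for levels per length and for alternatives. Libraries were grouped by title, and 0 columns belonged to other samples. With 27792357 to 33365588 counts per library, the limit that a count of 0 allows (3 counts) was 0.0899 to 0.108 CPM, for counting error only. The lowest count of a member in a library was 73.

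Counts were fitted in R 4.3.3 with edgeR 4.0.16 (filterByExpr, TMM, estimateDisp, glmQLFit, glmQLFTest; 14412 genes, 4 residual degrees of freedom, Benjamini-Hochberg adjustment, threshold 0.05) and were tested on simulated data. SE is the log2 fold change over the root of F. Libraries of a group differed beyond sampling noise (chi-square per degree of freedom 3.33 to 8.05). No sign that replicate numbers pair the libraries was seen, since same-numbered deviations correlated at -0.0472, -0.0861 and -0.00683. Such values cannot show how the libraries were made. Current names, gene types, nested snoRNA and microRNA genes and neighbours came from the RefSeq table of GRCr8, matched by gene ID (113) or symbol (16), with no coordinates used across builds. Sequences and promoter motifs were not analysed here.

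The members, the lists and the neighbour analysis were chosen with earlier results of these data known. Named by rule were Nono, Sfpq and Pspc1, the 12 lncRNAs of highest mean CPM, the 12 largest rises and 12 largest falls among called members with separate groups, members of the lists of known lncRNAs, those next to the limit of the selection, and the nearest protein-coding genes. Others were chosen after their values were seen. Alternatives were DESeq2 1.42.0 size factors and Wald test, total library size, upper-quartile factors, other filters, limma 3.58.1 voom, limma on log2(FPKM + 1) and log2(FPKM + 0.1), a replicate block, a threshold of 0.01, leaving out each library, other rankings of members and 3 alternatives added after seeing the data. Figures used matplotlib 3.10.9 under Python 3.11.15.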

Additional observations from a re-analysis of the deposited data

How the results depend on the processing

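Member counts of 22 raised and 31 lowered held within 1.5 times under most settings. Leaving out 1 library at a time gave 16 to 23 raised, 26 to 32 lowered and 3369 to 4386 genes called in all, and log2(FPKM + 1) gave 25 raised and 24 lowered. A threshold of 0.01 called 2852 of all genes. With the 75 most abundant lncRNAs in place of 150, 12 were raised and 25 lowered, and with members that overlap no tested coding gene, a subset chosen after seeing the data, 9 were raised and 25 lowered. Fewer members entered these 2 counts. Ranking by FPKM kept 103 of the 150 members and gave 16 raised and 29 lowered. Members holding a snoRNA gene had 8 lowered in each of 18 settings; restricting them to at least 2 snoRNA genes, also chosen after seeing the data, left 4 lowered of 6. Under total library size, log2(FPKM + 1), log2(FPKM + 0.1) and the filter of at least 1 FPKM in 3 libraries, 1 of them (LOC100911266) was raised. The replicate numbers gave no sign of pairing, and with the replicate block 20 members were raised, 31 lowered and 3757 genes called in all. Of 53 called members, 37 kept the call in all 18 settings and 39 without each library. Over 5041 single-gene comparisons on 284 genes, 265 lost a call, 111 gained one and 0 turned direction. The cause of these changes was not tested. The median log2 fold change of all genes was 0.00235, and under the alternatives it lay between -0.01 and 0.0535. At the lowest count of a member, 73, counting error alone is 11.7%, which limits what can be seen at the bottom of the list.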
